A study of Rattus norvegicus with 12 samples.

Results

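The endoplasmic reticulum (ER) machinery that folds secretory proteins and clears the ones that fail was described here as 37 genes, chosen by symbol. They form 3 classes. The 16 chaperones and co-chaperones are Hspa5, Hsp90b1, Hyou1, Calr, Canx, Uggt1, Dnajb9, Dnajb11, Dnajc3, Dnajc10, Sdf2l1, Manf, Creld2, Sil1, Fkbp2 and Ppib. The 11 disulfide oxidoreductases are P4hb, Pdia3, Pdia4, Pdia5, Pdia6, Txndc5, Txndc11, Erp29, Erp44, Ero1a and Ero1b. The 10 genes of ER-associated degradation (ERAD) are Edem1, Edem2, Edem3, Sel1l, Syvn1, Derl1, Derl2, Derl3, Herpud1 and Os9. The deposited table held 34034 gene symbols, and 14324 of them, with all 37 of these genes, were above a CPM of 1, a count scaled to its library's size, in at least 2 libraries.

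Proinsulin enters the ER unfolded, is held by BiP (Hspa5) and its J-protein partners, receives its disulfide bonds from the protein disulfide isomerases that ERO1 enzymes recharge, and is degraded through the SEL1L-HRD1 complex when folding fails. EDEM proteins and the lectin Os9 bring misfolded glycoproteins to the same complex. A β-cell devotes much of its protein synthesis to this cargo. When unfolded protein accumulates, the sensors IRE1 (Ern1), PERK (Eif2ak3) and ATF6 start the unfolded protein response (UPR), in which spliced XBP1 and cleaved ATF6 bind promoter elements of many genes of the 3 classes.

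INS-1E is an established clonal rat insulinoma line used as a β-cell model, labelled wild type in all groups, and bulk polyA RNA was sequenced from 4 groups of 3 biological replicates. Untreated cells were compared with the treated groups. IL-1βlow cells received IL-1β at 10 pg/ml, with a new dose every 24 h over 72 h and no change of medium. CYT cells received IL-1β at 100 pg/ml and IFN-γ at 5 ng/ml for 16 h. IL-1βlow + CYT cells received the low dose and then, in new medium, the CYT challenge. The study's methods do not state whether IL-1βlow cells without CYT also spent those 16 h in new medium. The study asked whether such preconditioning changes the response to cytotoxic cytokines. Whether replicates came from cultures grown on separate days is not stated, so p-values measure the spread between these libraries.

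Libraries held 15812640 to 20246806 counts (median 17461925.5). The ribosomal RNA gene Rn45s took 6.89% to 11.1% of them, and 13 mitochondrial genes took 1.69% to 2.67% in CYT libraries and 2.24% to 4.25% in the others. A chi-square test between the counts of same-group libraries gave 7.11 to 27.5 per degree of freedom, so none repeated another. Of 10 β-cell markers, 9 passed the filter. The summed level of the 10, as CPM of the library total, was 41957 to 51737 CPM in untreated, 39152 to 44265 in IL-1βlow, 14015 to 14484 in CYT and 20127 to 25245 in IL-1βlow + CYT libraries. The leukocyte markers Ptprc and Itgam, the acinar markers Prss1 and Cpa1 and the fibroblast marker Dcn were at 0 counts in all 12 libraries. The 4 leukocyte markers summed to at most 1.12 CPM without CYT and to 1.92 to 4.56 CPM with it. The 4 markers of other islet endocrine cells (mainly Gcg) summed to 155 to 360 CPM without CYT, 24.6 to 64.5 in CYT and 73.9 to 150 in IL-1βlow + CYT libraries, and the 4 fibroblast markers to 11.9 to 15.9, 5.80 to 7.13 and 7.90 to 10.7. These marker levels moved with CYT beside the ER genes described below, and their part in those results was not tested. In RNA from a whole culture, fewer cells of a kind and less RNA per cell cannot be told apart.

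Levels are given as CPM normalized by the trimmed mean of M-values (TMM), and because CPM takes no account of transcript length they are compared between libraries and not between genes. Differences are log2 fold changes ± standard error (SE) from edgeR's quasi-likelihood test on all 14324 genes and 12 libraries, with Benjamini-Hochberg adjusted p-values. A gene is said to have risen or fallen where its adjusted p was under 0.01. It is said to be called where the absolute log2 fold change was also above the study's minimum, which is 0.6 for IL-1βlow against untreated cells and 1 for other pairs of groups. The study's methods describe no interaction test, and a minimum of 1 was chosen for it here. The lowest count of any of the 37 genes in any library was 34, and outside Fkbp2 and Pdia5 it was 152. For 17 of them the RefSeq annotation (GRCr8) holds another gene over the same stretch, among them Creld2 (Alg12), Txndc11 (Snn), Derl3 (Smarcb1), Herpud1 (LOC102553339) and Fkbp2 (Fkbp2l1). Whether the counting used strand is not given in the sources used here, so values of those 17 are uncertain. Smarcb1, the partner of Derl3, had group means of 92.3, 101, 147 and 106 CPM of the library total in untreated, IL-1βlow, CYT and IL-1βlow + CYT cells. In the same order, Snn, the partner of Txndc11, had 39.7, 50.7, 39.9 and 69.9 CPM. Alg12, the partner of Creld2, had 31.8, 30.9, 53.8 and 32.6 CPM. LOC102553339, the partner of Herpud1, stayed between 1.22 and 2.47 CPM. Snn, like Txndc11, was higher in IL-1βlow + CYT than in CYT cells, and its part in the Txndc11 values was not tested.

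Many of these genes share promoter letters. The ER stress response element (ERSE) reads CCAAT, 9 bases of any kind, CCACG, and its second form (ERSE-II) reads ATTGG, any base, CCACG. RefSeq windows on GRCr8, from 250 bases before to 50 bases after the start site, were held for 31 of the 37 genes, and Manf, Pdia3, Pdia6, Ero1a, Derl1 and Os9 had no entry. Hyou1 had a further window, at a later start site, that held neither element. Its positions below are from the earlier start site. On either strand, ERSE was found in 8 of the 31 genes (25.8%) against 0.0657% of all 33469 windows, and ERSE-II in 3 (9.68%) against 0.0508%. UPR factors are known to bind promoter elements of many such genes, so these shares describe a chosen list and test nothing. The share of the 31 counts genes, and the share of all windows counts windows. The 13 matches are shown because 11 genes from all 3 classes carry the same letters at different distances and yet did not move alike with CYT. Each is written 5′ to 3′ along its own strand, with the letters searched for in capitals, and with its position from the start site, where 1 is the first transcribed base and -1 the base before it.
Hspa5, chr3:38452973-38452991, -43 to -25, gene strand: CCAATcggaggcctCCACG
Hsp90b1, chr7:23012451-23012469, -176 to -158, gene strand: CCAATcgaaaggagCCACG
Hsp90b1, chr7:23012347-23012365, -72 to -54, opposite strand: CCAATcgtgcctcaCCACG
Calr, chr19:40213135-40213153, -232 to -214, opposite strand: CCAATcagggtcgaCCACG
Canx, chr10:35158069-35158087, -230 to -212, gene strand: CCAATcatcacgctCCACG
Dnajc3, chr15:102432534-102432552, -133 to -115, gene strand: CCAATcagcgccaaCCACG
Creld2, chr7:121789239-121789257, -145 to -127, opposite strand: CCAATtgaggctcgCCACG
Ero1b, chr17:92941458-92941476, -224 to -206, opposite strand: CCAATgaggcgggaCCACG
Derl3, chr20:12766601-12766619, -154 to -136, opposite strand: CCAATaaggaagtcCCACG
Hyou1, chr8:53602694-53602704, -188 to -178, opposite strand: ATTGGcCCACG
Hyou1, chr8:53602794-53602804, -88 to -78, opposite strand: ATTGGgCCACG
Herpud1, chr19:10614821-10614831, -124 to -114, gene strand: ATTGGgCCACG
Dnajb11, chr11:91672800-91672810, -10 to 1, gene strand: ATTGGcCCACG

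The Herpud1 match and the second Hyou1 match have the same 11 letters. The shared end CCACG alone was found in 27 of the 31 genes (87.1%) against 31.6% of all windows, and it lies within every ERSE and ERSE-II. The XBP1 element TGACGTGG, which holds the reverse complement of CCACG, was found in Dnajc10, Hyou1 and Txndc11 (9.68%) against 0.595% of all windows. In Hyou1 it overlaps an ERSE-II. The C/EBP-ATF element TGATGNAAT, of the kind found in promoters that ATF4 drives, was in 0 of the 31 against 1.09%. At so small a share 31 genes are too few to show an absence, and only this exact spelling was searched. The 250 bases before the start are shown for the BiP gene, for the ERAD genes with the opposite CYT responses (Derl3 and Herpud1), and for Dnajc10, which has an XBP1 element and no ERSE. They are written 5′ to 3′ along the gene, with the ERSE, ERSE-II or XBP1 element in capitals.
Hspa5, chr3:38452766-38453015, plus strand: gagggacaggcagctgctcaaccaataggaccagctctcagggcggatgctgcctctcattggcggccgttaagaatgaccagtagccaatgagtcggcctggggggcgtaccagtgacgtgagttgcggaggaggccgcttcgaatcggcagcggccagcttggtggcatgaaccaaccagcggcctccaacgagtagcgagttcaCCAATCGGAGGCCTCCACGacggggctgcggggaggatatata
Dnajc10, chr3:85639339-85639588, plus strand: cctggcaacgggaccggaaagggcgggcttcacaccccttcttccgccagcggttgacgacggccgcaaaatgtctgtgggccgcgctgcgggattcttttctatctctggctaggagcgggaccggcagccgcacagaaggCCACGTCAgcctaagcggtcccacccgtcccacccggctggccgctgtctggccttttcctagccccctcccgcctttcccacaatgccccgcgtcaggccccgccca
Derl3, chr20:12766466-12766715, minus strand: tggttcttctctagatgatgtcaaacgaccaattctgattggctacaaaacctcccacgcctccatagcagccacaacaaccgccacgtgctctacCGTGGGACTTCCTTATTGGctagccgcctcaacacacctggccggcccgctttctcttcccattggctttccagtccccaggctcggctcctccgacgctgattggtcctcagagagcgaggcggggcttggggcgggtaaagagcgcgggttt
Herpud1, chr19:10614708-10614957, minus strand: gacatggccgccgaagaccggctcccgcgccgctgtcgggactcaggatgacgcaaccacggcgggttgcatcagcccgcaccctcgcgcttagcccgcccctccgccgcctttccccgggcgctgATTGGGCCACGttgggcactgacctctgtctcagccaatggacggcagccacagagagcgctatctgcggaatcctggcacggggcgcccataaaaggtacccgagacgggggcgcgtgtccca

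These letters are matches in a reference sequence, and binding was not measured.

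**Figure D1:**
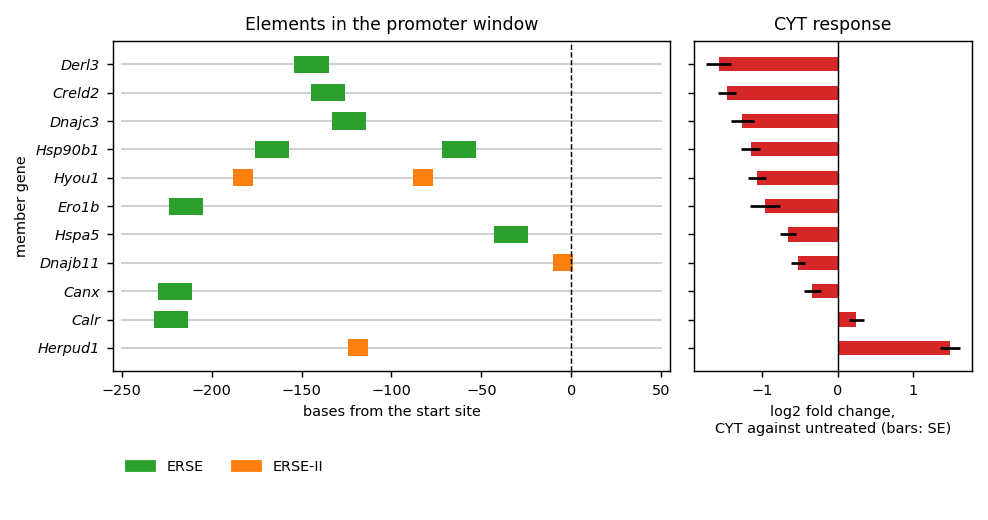
Positions of ERSE (green) and ERSE-II (orange) matches in bases from the start site (left) and log2 fold change of CYT against untreated cells (right, bars: SE) for the 11 genes that hold one. Genes with a match ranged from -1.58 (Derl3) to 1.49 (Herpud1).

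The CYT challenge lowered most of the ER folding and degradation genes in cells that had not been preconditioned. Of the 37, 23 fell and 3 rose (Herpud1, Sil1 and P4hb), where 24.5% of all genes tested fell and 25.2% rose (49.7% together). With the fold minimum, 10 were called lower (11.6% of all genes) and 1, Herpud1, was called higher (10.0%, and 21.6% in either direction). The median log2 fold change was -0.53 over the 37 genes and -0.04 over all genes tested. In 26 of them all 3 CYT libraries lay below all 3 untreated libraries (35.3% of all genes), and in 5 they lay above (34.0%). The class sums were 6436 ± 559 (SD, n = 3) CPM in untreated and 4516 ± 79.4 (SD, n = 3) in CYT cells for chaperones, 3970.1 ± 384 and 3470.4 ± 121 for oxidoreductases, and 1401 ± 61.7 and 1123 ± 49.0 for ERAD. For oxidoreductases the libraries overlapped (lowest untreated 3557, highest CYT 3599), and for chaperones and ERAD they did not.

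**Figure D2:**
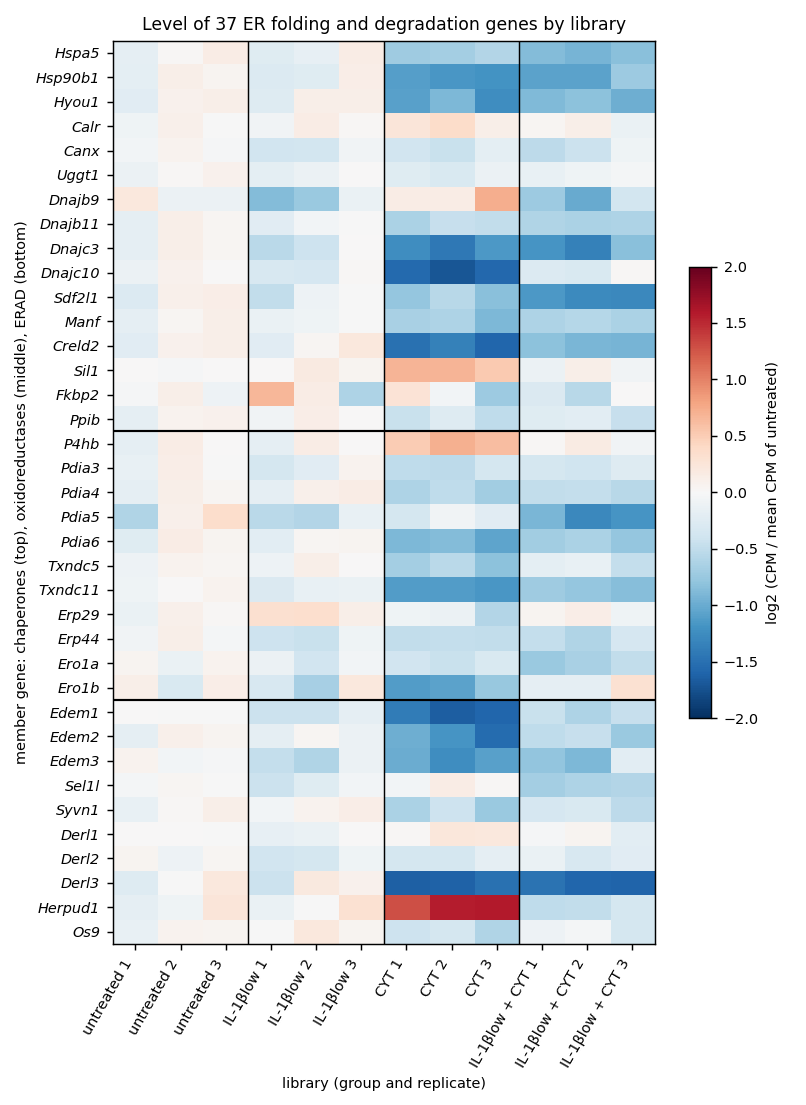
Level of each of the 37 genes (rows, by class) in each of the 12 libraries (columns), as log2 of CPM over the mean CPM of untreated cells, from blue (lower) to red (higher). The CYT columns are mostly blue, with Herpud1, Sil1 and P4hb red, and the Dnajc10, Ero1b and Edem1 rows are paler in the IL-1βlow + CYT columns.

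Among the chaperones, 10 of 16 fell and 1 rose. Hspa5 encodes BiP, the HSP70 of the ER lumen and the master folding chaperone. It was at 1444, 1660.0 and 1805 CPM in untreated replicates 1 to 3, 1382, 1458 and 1804 in IL-1βlow, 1003, 1017 and 1087 in CYT and 899, 855 and 918 in IL-1βlow + CYT. Both challenged groups lay below both unchallenged groups with no overlap. CYT against untreated gave -0.66 ± 0.11 (SE, adjusted p = 0.000109), short of the fold minimum.

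Hsp90b1 encodes GRP94, the HSP90 of the ER. Its level was 901, 1120.4 and 1077 CPM in untreated, 854, 872 and 1132 in IL-1βlow, 479.9, 460.3 and 449 in CYT and 489, 489 and 626 in IL-1βlow + CYT libraries. The challenged groups again lay apart from the unchallenged ones, and replicate 3 was the highest of the IL-1βlow + CYT libraries. Hsp90b1 fell with CYT, by 1.16 on the log2 scale (adjusted p = 2.65e-06). Hyou1 encodes the large HSP70-like protein that exchanges the nucleotide of BiP. It was at 536, 660.4 and 678 CPM in untreated, 522, 679 and 679 in IL-1βlow, 295, 334 and 264 in CYT and 339, 355 and 317 in IL-1βlow + CYT libraries, again with the challenged groups below. Its CYT response was -1.07 ± 0.12 (SE, adjusted p = 3.96e-06), and without CYT replicate 3 it was -0.96, under the fold minimum.

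The J-proteins, which deliver clients to BiP and stimulate its ATPase, did not move alike. Dnajc10 encodes ERdj5, a J-protein that also reduces disulfides ahead of degradation. It had the largest fall of the class, from 141, 162 and 153 CPM in untreated to 51.8, 46.2 and 51.4 in CYT libraries (-1.61 ± 0.12, SE, adjusted p = 3.66e-08), with 122, 120.2 and 155 in IL-1βlow and 125, 123 and 155 in IL-1βlow + CYT libraries. The CYT libraries stood alone below the other 9. Dnajc3 encodes p58IPK, a co-chaperone known as an inhibitor of PERK. It fell (-1.27 ± 0.15, SE, adjusted p = 6.93e-06) from 91.1, 113 and 107 to 43.8, 38.4 and 46.8 CPM, and was at 71.6, 78.0 and 105 in IL-1βlow and 45.7, 40.8 and 58.4 in IL-1βlow + CYT libraries, where the highest value still lay below the untreated range. Dnajb11 (ERdj3) fell by less (-0.53 ± 0.09, SE, adjusted p = 0.000157). Dnajb9 encodes ERdj4, a J-protein known to be strongly induced through XBP1. It was at 20.1, 15.9 and 15.9 CPM in untreated, 9.54, 10.3 and 15.7 in IL-1βlow, 19.3, 19.1 and 28.7 in CYT and 10.5, 8.60 and 13.5 in IL-1βlow + CYT libraries. Its untreated and CYT ranges overlapped, with a response of 0.37 ± 0.21 (SE, adjusted p = 0.148).

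Creld2 encodes an ER stress-inducible protein of the lumen. It was at 91.8, 113 and 116 CPM in untreated, 91.3, 110.4 and 123 in IL-1βlow, 38.1, 41.7 and 35.7 in CYT and 60.8, 57.0 and 56.1 in IL-1βlow + CYT libraries. The CYT libraries were lowest and the IL-1βlow + CYT libraries lay between them and the rest, without overlap on either side. Its CYT response was -1.47 ± 0.12 (SE, adjusted p = 1.04e-07), a fold of 0.36. Sil1, the other nucleotide exchange factor of BiP, went the opposite way. It was at 41.4, 40.8 and 41.7 CPM in untreated, 41.4, 46.7 and 43.0 in IL-1βlow, 66.4, 66.5 and 59.6 in CYT and 38.0, 44.6 and 39.2 in IL-1βlow + CYT libraries, and its CYT libraries stood alone above the other 9. It rose by 0.64 ± 0.09 (SE, adjusted p = 2.73e-05), under the fold minimum. Hyou1 and Sil1, which both exchange the nucleotide of BiP, thus had responses of opposite sign.

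The other chaperones changed by less than the fold minimum. Sdf2l1, a partner of ERdj3, and Manf, a secreted ER stress factor, fell by 0.71 each on the log2 scale, and the cyclophilin Ppib fell by 0.40. The lectin chaperones of the calnexin cycle did not pass: Calr gave 0.25 ± 0.10 (SE, adjusted p = 0.0385), Canx -0.33 ± 0.12 (SE, adjusted p = 0.0242) and the glucosyltransferase Uggt1 -0.22 ± 0.09 (SE, adjusted p = 0.0394). Fkbp2, at 1.94 to 5.08 CPM, gave -0.12 ± 0.31 (SE, adjusted p = 0.758).

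**Figure D3:**
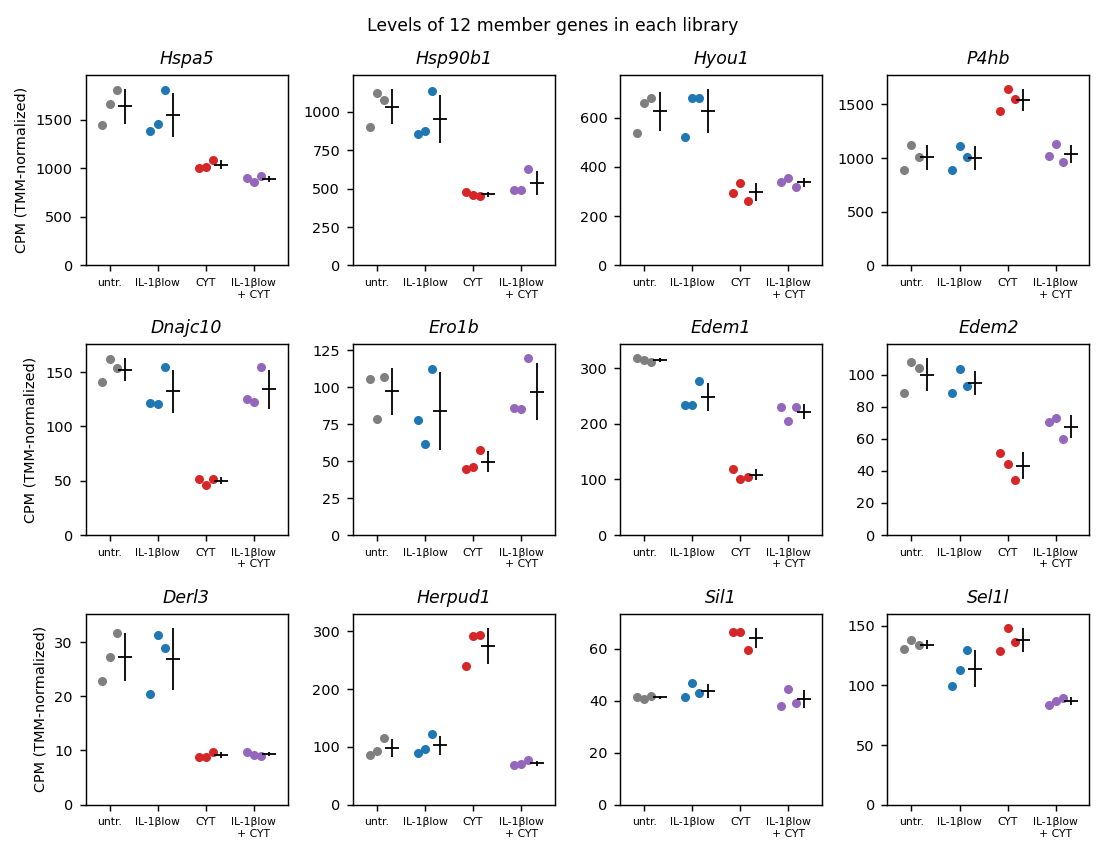
CPM of 12 of the genes in each library (points, 3 per group) with the group mean and SD (black). Hspa5, Hsp90b1, Hyou1 and Derl3 are low in both CYT groups, Dnajc10, Ero1b and Edem1 are lowest in CYT alone, and Herpud1, Sil1 and P4hb are highest in CYT alone.

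Of the 11 oxidoreductases, 7 fell and 1 rose. P4hb encodes PDI, the founding disulfide isomerase. It was at 889, 1122 and 1011 CPM in untreated, 889, 1112 and 1013 in IL-1βlow, 1435, 1642 and 1552 in CYT and 1019, 1129 and 964 in IL-1βlow + CYT libraries. Its CYT libraries stood above the other 9, and it rose by 0.62 ± 0.11 (SE, adjusted p = 0.00021). The other isomerases did not share this direction. Pdia6 fell by 0.94 (adjusted p = 3.55e-06), Txndc5 by 0.68, Pdia4 by 0.61 and Pdia3 by 0.46, while Pdia5, at 1.89 to 5.84 CPM, gave -0.21 ± 0.23 (SE, adjusted p = 0.446).

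Txndc11, a thioredoxin-domain protein of the ER membrane that takes part in EDEM redox reactions, was the one oxidoreductase called. It was at 72.6, 77.9 and 81.5 CPM in untreated, 63.4, 70.0 and 70.2 in IL-1βlow, 35.6, 35.8 and 34.5 in CYT and 47.2, 45.5 and 42.9 in IL-1βlow + CYT libraries, 4 ranges that did not overlap, and it fell (-1.13 ± 0.08, SE, adjusted p = 3.22e-08). Ero1b encodes the ERO1 enzyme that is abundant in pancreatic endocrine cells and re-oxidizes PDI. It was at 106, 78.7 and 107 CPM in untreated, 78.0, 61.3 and 113 in IL-1βlow, 44.9, 46.2 and 57.7 in CYT and 86.2, 85.4 and 119.6 in IL-1βlow + CYT libraries. The CYT libraries were below the other 9, which overlapped one another, and the response was -0.97 ± 0.20 (SE, adjusted p = 0.000797), just short of the fold minimum. Its paralogue Ero1a gave -0.38 ± 0.11 (SE, adjusted p = 0.0106). Erp44, which retains ERO1 enzymes in the early secretory pathway, fell by 0.49, and Erp29 gave -0.25 ± 0.12 (SE, adjusted p = 0.0908).

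The ERAD genes included the highest and the second lowest response of the 37 (Herpud1 and Derl3), with 6 of 10 falling and 1 rising. Edem1, Edem2 and Edem3 encode mannosidase-like proteins that mark misfolded glycoproteins for removal, and all 3 were called lower. Edem1 was at 318, 315 and 312 CPM in untreated, 234, 235 and 277 in IL-1βlow, 119.6, 101 and 105 in CYT and 230.4, 206 and 229.9 in IL-1βlow + CYT libraries, with each challenged or preconditioned group below untreated and CYT far below all others. It fell with CYT (-1.54 ± 0.09, SE, adjusted p = 4.57e-09). Edem2 was at 88.6, 108 and 104 CPM in untreated, 88.5, 103 and 92.8 in IL-1βlow, 51.1, 44.2 and 34.4 in CYT and 70.6, 72.8 and 59.7 in IL-1βlow + CYT libraries, with CYT lowest and without overlap (-1.21 ± 0.13, SE, adjusted p = 2.48e-06). Edem3 was at 76.2, 69.4 and 71.6 CPM in untreated, 52.2, 47.9 and 66.4 in IL-1βlow, 36.3, 30.6 and 34.2 in CYT and 41.9, 38.9 and 62.8 in IL-1βlow + CYT libraries, with replicate 3 of the last group above the other two (-1.10 ± 0.16, SE, adjusted p = 4.3e-05).

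Derlins are membrane proteins through which clients leave the ER, and only 1 of the 3 Derlin genes fell at adjusted p under 0.01. Derl3 was at 22.9, 27.2 and 31.7 CPM in untreated, 20.4, 31.3 and 28.9 in IL-1βlow, 8.75, 8.86 and 9.71 in CYT and 9.79, 9.10 and 9.03 in IL-1βlow + CYT libraries. Both challenged groups were far below both unchallenged ones, with a CYT response of -1.58 ± 0.16 (SE, adjusted p = 1.35e-06), a fold of 0.334. Derl1 gave 0.16 ± 0.09 (SE, adjusted p = 0.126) and Derl2 -0.29 ± 0.10 (SE, adjusted p = 0.0271). Herpud1 encodes HERP, a stress-inducible membrane protein that recruits the ubiquitin ligase HRD1, and it was the one gene of the 37 called higher. It was at 86.1, 92.1 and 116 CPM in untreated, 89.0, 97.0 and 122 in IL-1βlow, 239, 292 and 294 in CYT and 69.2, 69.4 and 76.6 in IL-1βlow + CYT libraries. CYT libraries were highest, IL-1βlow + CYT libraries were lowest, and neither overlapped another group. Its CYT response was 1.49 ± 0.13 (SE, adjusted p = 2.85e-07), a fold of 2.81. The ligase gene Syvn1 (HRD1) fell by 0.59 and the lectin Os9 by 0.45, while Sel1l, the adaptor that HERP and HRD1 work with, gave 0.038 ± 0.09 (SE, adjusted p = 0.74).

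Members that hold an ERSE or ERSE-II had a median CYT response of -0.97 on the log2 scale (11 genes, 8 falling and 1 rising), and the 20 with a window and neither element had -0.44 (11 falling and 2 rising). The 6 without a window had -0.46 (4 falling and 0 rising). This is a description of 37 chosen genes, and a part of the elements in the CYT response was not tested. Herpud1 and Derl3, which both hold a match, had the highest and the second lowest response of the 37. Dnajc10 and Edem1, which hold neither ERSE nor ERSE-II, had the lowest and the third lowest, and Dnajc10 holds an XBP1 element.

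In cells preconditioned with IL-1βlow, the challenge lowered 13 genes of the 37, among them Hspa5, Hsp90b1, Hyou1 and Derl3, and edgeR found none raised. Set against IL-1βlow cells, IL-1βlow + CYT cells had these 13 lower (2.63% of all genes) and 0 higher (5.57%), where 8.20% of all genes changed. At an unadjusted p under 0.05, 21 differed in either direction, with 23.6% of all genes. Sdf2l1 was at 51.6, 67.6 and 71.6 CPM in IL-1βlow and 32.5, 30.1 and 29.7 in IL-1βlow + CYT libraries, and its ranges did not overlap. The called genes were Sdf2l1 (-1.05 ± 0.14, SE, adjusted p = 7.83e-05) and Derl3 (-1.53 ± 0.16, SE, adjusted p = 1.1e-05), both lower. Of all genes 0.963% were called lower and 2.92% higher, 3.88% together. The median log2 fold change was -0.39 over the 37 genes and -0.01 over all genes. In 22 genes the 3 challenged libraries lay below the 3 IL-1βlow libraries (12.9% of all genes) and in 0 above (14.2%). DESeq2's Wald test and exactTest also found 0 higher. Sdf2l1 without IL-1βlow replicate 3 was at -0.95, and the number called was then 1.

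Hspa5, Hsp90b1, Hyou1, Dnajc3, Dnajb11 and Creld2 fell in both settings, while Dnajc10, Dnajb9 and Sil1 did not (0.021, -0.13 and -0.11 with preconditioning, none past the threshold). The BiP partners thus stood on both sides, with Hyou1, Dnajc3 and Dnajb11 among those that fell. The log2 fold change in preconditioned cells was -0.80 for Hspa5 (adjusted p = 0.000115), -0.83 for Hsp90b1 (adjusted p = 0.000337), -0.90 for Hyou1 (adjusted p = 0.000128), -0.81 for Dnajc3 and -0.90 for Creld2. Dnajb11, Manf, Pdia4, Pdia6, Txndc11 and Syvn1 also fell, by 0.43 to 0.67. The difference between both CYT responses (preconditioned minus not, tested as the interaction) was -0.14 for Hspa5 (95% interval -0.46 to 0.19), 0.32 for Hsp90b1 (-0.059 to 0.71), 0.18 for Hyou1 (-0.19 to 0.55) and 0.053 for Derl3 (-0.44 to 0.54). None of these passed, and the interval of Hsp90b1 reached a difference of 0.71.

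For Dnajc10, Edem1, Ero1b and Herpud1 the CYT response differed most with preconditioning. The interaction passed for 8 of the 37 genes, 6 higher and 2 lower (10.1% and 12.5% of all genes, 22.6% together), and 4 were called, 3 higher and 1 lower (5.48% and 5.20%, 10.7% together). Dnajc10, which fell by 1.61 without preconditioning, gave 0.021 ± 0.11 (SE, adjusted p = 0.949) with it, a difference of 1.63 ± 0.16 (SE, adjusted p = 8.61e-06). Edem1 gave -0.16 ± 0.09 (SE, adjusted p = 0.306) with it and a difference of 1.37 ± 0.13 (SE, adjusted p = 4.81e-06). Ero1b gave 0.21 ± 0.20 (SE, adjusted p = 0.613) with it and a difference of 1.18 ± 0.28 (SE, adjusted p = 0.00509). The Ero1b call was lost in 6 of 12 fits that left out a library, at adjusted p from 0.0144 to 0.0194: without untreated replicate 1 or 3, IL-1βlow replicate 1 or 2, or CYT replicate 1 or 2. Herpud1 changed sign, from 1.49 without to -0.51 with preconditioning (adjusted p = 0.0172, not past the threshold), a difference of -2.00 ± 0.19 (SE, adjusted p = 4.95e-06).

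Below the fold minimum, the CYT responses of Edem2 (0.73 ± 0.19, SE, adjusted p = 0.00761), Edem3 (0.89 ± 0.23, SE, adjusted p = 0.00779) and Txndc11 (0.54 ± 0.11, SE, adjusted p = 0.00221) were less negative with preconditioning, and that of Sil1 was less positive (-0.74 ± 0.13, SE, adjusted p = 0.000515). P4hb lay at the threshold (-0.57 ± 0.15, SE, adjusted p = 0.0101). RLE size factors and library sizes alone each gave 5 higher and 3 lower in place of 6 and 2. The number of genes past the adjusted p was 5 without CYT replicate 2 or without untreated replicate 3.

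**Figure D4:**
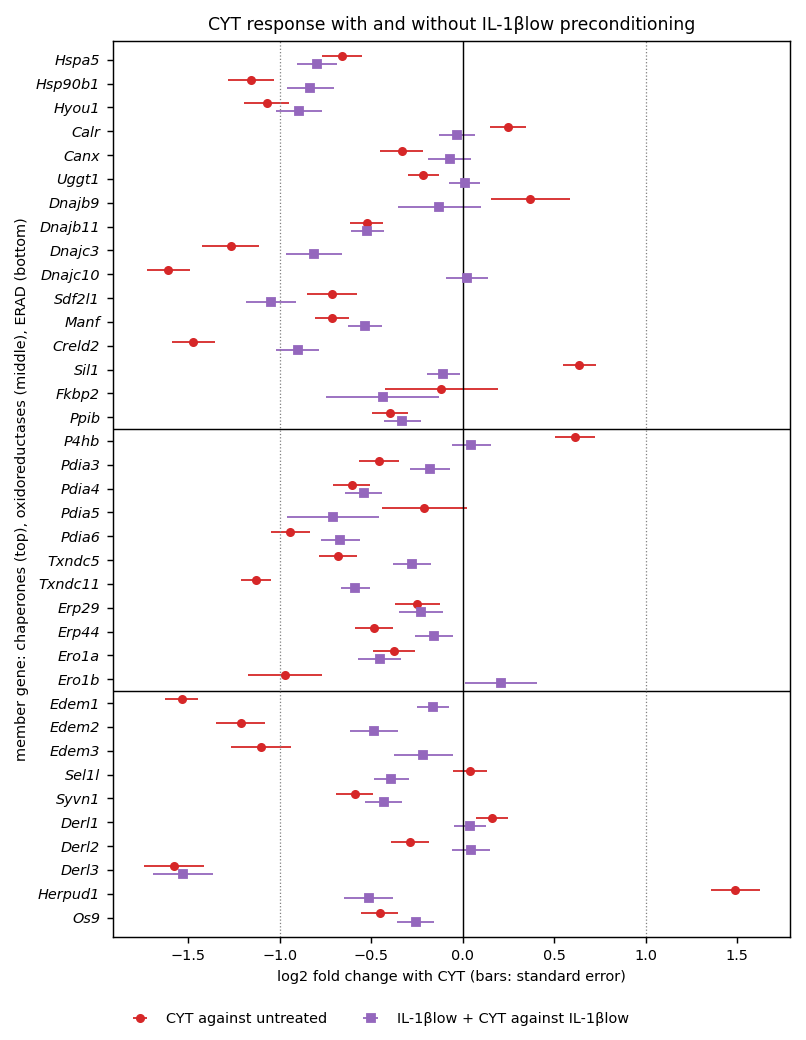
Log2 fold change with CYT for each of the 37 genes, in cells without preconditioning (red circles, CYT against untreated) and with it (purple squares, IL-1βlow + CYT against IL-1βlow), with SE bars and dotted lines at 1 and -1. Derl3 and Dnajb11 have nearly the same value in both, and Dnajc10, Ero1b, Edem1 and Herpud1 are farthest apart.

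These comparisons share no library, so both responses can be set against each other. Across the 37 genes Pearson's r was 0.401 and Spearman's rho 0.460, and across all 14324 genes they were 0.762 and 0.550. Genes are not independent replicates, and all points come from the same 12 libraries. The preconditioned response was the smaller in size for 31 of the 37 (83.8%), close to the 81.7% of all genes.

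Set directly against CYT cells, IL-1βlow + CYT cells had 7 of the 37 genes higher and 7 lower (17.1% and 19.2% of all genes, 36.3% together), and 2 called on each side (6.54% and 5.92%, 12.5% together). Dnajc10 (1.43 ± 0.12, SE, adjusted p = 4.22e-07) and Edem1 (1.03 ± 0.09, SE, adjusted p = 7.57e-07) were called higher, and Herpud1 (-1.94 ± 0.13, SE, adjusted p = 9.35e-08) and Dnajb9 (-1.05 ± 0.22, SE, adjusted p = 0.00126) lower. This comparison uses the same CYT libraries as CYT against untreated, so their values stand side by side without a correlation. The median was 0.10 over the 37 genes and 0.02 over all genes. In 11 genes the preconditioned libraries lay above all CYT libraries (26.8% of all genes) and in 10 below (27.6%). With upper-quartile factors the split was 9 and 5, and 3 and 1 were called, Ero1b (1.04) being added and Dnajb9 (-0.97) lost.

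Also higher, under the fold minimum, were Ero1b (0.97 ± 0.20, SE, adjusted p = 0.00118), Edem2 (0.65 ± 0.13, SE, adjusted p = 0.00106), Creld2 (0.59 ± 0.12, SE, adjusted p = 0.000899), Txndc5 (0.41 ± 0.10, SE, adjusted p = 0.00416) and Txndc11 (0.35 ± 0.08, SE, adjusted p = 0.00247). Also lower, under the fold minimum, were Sel1l (-0.67 ± 0.09, SE, adjusted p = 5.18e-05), Sil1 (-0.66 ± 0.09, SE, adjusted p = 3.4e-05), P4hb (-0.57 ± 0.11, SE, adjusted p = 0.000582), Sdf2l1 (-0.52 ± 0.14, SE, adjusted p = 0.00588) and Pdia5 (-0.91 ± 0.25, SE, adjusted p = 0.00732). Sel1l, which had not moved past the threshold with CYT alone, averaged 138 ± 9.92 (SD, n = 3) CPM in CYT and 86.9 ± 3.03 (SD, n = 3) in IL-1βlow + CYT cells, whose libraries lay below all others. Hspa5 (-0.22, 95% interval -0.45 to 0.014), Hsp90b1 (0.21, -0.064 to 0.48) and Hyou1 (0.18, -0.083 to 0.44) did not pass. The IL-1βlow + CYT libraries still lay below all CYT libraries for Hspa5 and above them for Hsp90b1. Of the BiP partners, Dnajc10, Dnajb9 and Sil1 passed, as given above, and Hyou1, Dnajc3 (0.16) and Dnajb11 (-0.09) did not. The Edem1 call dropped under the fold minimum without CYT replicate 2 (0.98) or 3 (0.98) or IL-1βlow + CYT replicate 1 (0.97), and the Dnajb9 call without CYT replicate 3 (-0.86) or IL-1βlow + CYT replicate 2 (-0.90).

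Against untreated cells, IL-1βlow + CYT cells had 18 of the 37 genes lower (5.53% of all genes) and 0 higher (8.24%, 13.8% together), and 34 of the 37 had a negative log2 fold change. Counted at an unadjusted p under 0.05, 26 differed in either direction, with 34.0% of all genes, and DESeq2's Wald test and exactTest also found 0 higher. The 4 called, all lower, stood against 2.14% of all genes called lower and 3.85% higher (5.99% together). They were Derl3 (-1.55 ± 0.16, SE, adjusted p = 6.04e-06), Sdf2l1 (-1.23 ± 0.14, SE, adjusted p = 9.98e-06), Pdia5 (-1.12 ± 0.25, SE, adjusted p = 0.00414) and Dnajc3 (-1.10 ± 0.15, SE, adjusted p = 9.24e-05). The median was -0.51 over the 37 genes and -0.0050 over all genes. In 27 genes the IL-1βlow + CYT libraries lay below all untreated libraries (17.1% of all genes), and in 0 above (20.2%). The untreated libraries are those of the CYT comparison too.

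Hspa5 (-0.88 ± 0.11, SE, adjusted p = 3.02e-05), Hsp90b1 (-0.95 ± 0.13, SE, adjusted p = 6.64e-05), Hyou1 (-0.89 ± 0.12, SE, adjusted p = 8.41e-05), Creld2 (-0.88 ± 0.12, SE, adjusted p = 5.67e-05), Txndc11 (-0.78 ± 0.08, SE, adjusted p = 5.41e-06) and Pdia6 (-0.70 ± 0.11, SE, adjusted p = 0.000212) were lower than in untreated cells. Edem1 was lower by 0.51 (adjusted p = 0.000778). Dnajc10 (-0.18 ± 0.11, SE, adjusted p = 0.285), Ero1b (-0.0028 ± 0.20, SE, adjusted p = 0.994), Sil1 (-0.025 ± 0.09, SE, adjusted p = 0.877) and P4hb (0.043 ± 0.11, SE, adjusted p = 0.816) did not pass, and the 95% interval was -0.42 to 0.063 for Dnajc10 and -0.43 to 0.42 for Ero1b. Without untreated replicate 1, which had the lowest level of Hspa5, Hsp90b1, Hyou1 and Creld2 of its group, 7 were called, with Creld2, Hsp90b1 and Hyou1 added. Without IL-1βlow + CYT replicate 2 only Derl3 and Sdf2l1 remained called, and Pdia5 was also lost without untreated replicate 2 or 3 (adjusted p = 0.0179 and 0.0274).

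The low dose on its own moved none of the 37 genes past the threshold. Against untreated cells edgeR called 0, and 0 passed the adjusted p alone, where 0.433% and 0.503% of all genes did. DESeq2's Wald test and exactTest called 0 too, and 9 of the 37 had an unadjusted p under 0.05, with 13.8% of all genes. Log2 fold changes ran from -0.55 (Dnajb9) to 0.26 (Erp29), with a median of -0.09 against 0.0044 over all genes. Hspa5 gave -0.080 (95% interval -0.31 to 0.15), Hsp90b1 -0.12 (-0.39 to 0.15), Hyou1 0.0036 (-0.26 to 0.26) and P4hb -0.0040 (-0.24 to 0.23), and their IL-1βlow and untreated ranges overlapped. In 7 genes the IL-1βlow libraries lay below all untreated libraries (10.6% of all genes) and in 1, Erp29, above (13.0%). The 7 were Canx, Dnajb9, Txndc11, Erp44, Edem1, Edem3 and Sel1l. Edem1 came nearest to the threshold, at -0.34 ± 0.09 (SE, adjusted p = 0.0866).

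**Figure D5:**
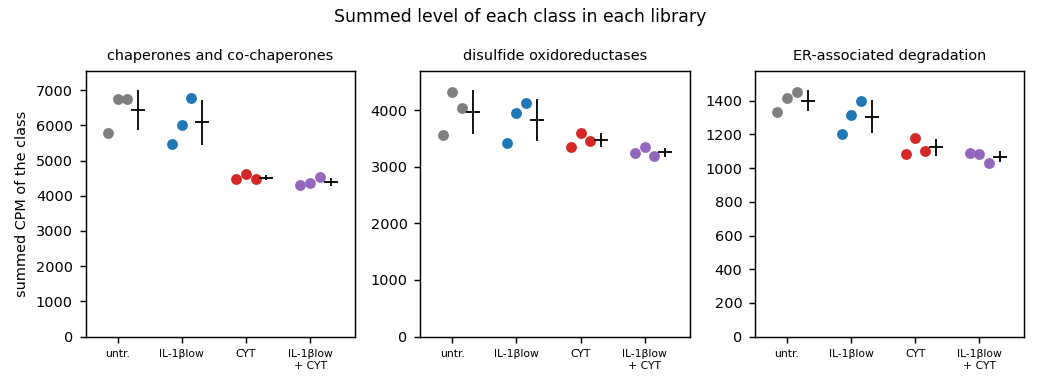
Summed CPM of each class in each library (points) with the group mean and SD (black). The group means of the 3 sums are lower in both challenged groups than in untreated cells, and the CYT and IL-1βlow + CYT libraries overlap in chaperones and ERAD but not in oxidoreductases. The untreated and CYT libraries overlap in oxidoreductases alone.

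With and without preconditioning, the class sums of challenged libraries overlapped for chaperones and ERAD genes, and for oxidoreductases they did not. Chaperones summed to 4516 ± 79.4 CPM in CYT and 4398 ± 116 (SD, n = 3) in IL-1βlow + CYT cells, oxidoreductases to 3470.4 ± 121 and 3261 ± 79.4, and ERAD genes to 1123 ± 49.0 and 1068 ± 31.4. These sums were not tested. The oxidoreductase order rested on P4hb: without it, a sum chosen after seeing the data, the means were 1927 ± 27.1 (SD, n = 3) CPM in CYT and 2224 ± 5.49 (SD, n = 3) in IL-1βlow + CYT cells. IL-1βlow cells had 6089 ± 645, 3833 ± 366 and 1306 ± 99.0 CPM. Gene by gene, the most frequent order of group means, in 11 of the 37, ran from high to low as untreated, IL-1βlow, IL-1βlow + CYT and CYT. In Calr, Dnajb9, Sil1, P4hb, Sel1l, Derl1 and Herpud1 the CYT mean was the highest of the 4.

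Other genes of ER protein handling were counted in the same fit, in which 25.2% of all genes rose and 24.5% fell with CYT (49.7% together). Of 14 folding enzymes past the filter (18 listed), 2 rose and 3 fell with CYT, from Fkbp11, an ER prolyl isomerase (-1.55 ± 0.15, SE, adjusted p = 5.55e-07), to the membrane J-protein Dnajb12 (0.76 ± 0.08, SE, adjusted p = 2.13e-06). Of 9 redox enzymes (12 listed), 3 rose and 4 fell, from Tmx1 (-1.03 ± 0.15, SE, adjusted p = 3.21e-05) to Txndc12 (0.64 ± 0.08, SE, adjusted p = 1.03e-05). Of 13 translocon and signal peptidase genes edgeR found 0 higher and 9 lower, with a median of -0.47 and the signal peptidase subunit Spcs3 lowest (-1.19 ± 0.24, SE, adjusted p = 0.000634). The highest there was Sec11a (0.051 ± 0.08, SE, adjusted p = 0.597), and 10 had an unadjusted p under 0.05, with 65.9% of all genes. Of 22 further ERAD factors 5 rose and 5 fell, from Fam8a1 (-1.03 ± 0.18, SE, adjusted p = 0.000234), a cofactor of HRD1, to Selenos (0.83 ± 0.09, SE, adjusted p = 2.51e-06), which links Derlins to the p97 ATPase.

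The UPR sensors and factors rose with CYT more often than they fell. Of these genes, 4 of 6 rose and 0 fell (25.2% and 24.5% of all genes), and 3 were called higher (10.0% of all genes). The 3 were Ddit3 (CHOP) by 4.52 ± 0.18 (SE, adjusted p = 1.08e-10), Ern1 by 2.31 ± 0.10 (SE, adjusted p = 2.35e-10) and Atf4 by 2.05 ± 0.09 (SE, adjusted p = 2.6e-10). Atf6 rose by 0.98 ± 0.07 (SE, adjusted p = 3.83e-08), and Xbp1 (0.21 ± 0.09, SE, adjusted p = 0.0535) and Eif2ak3 (0.49 ± 0.16, SE, adjusted p = 0.0136) did not pass. Against CYT cells, IL-1βlow + CYT cells had all 6 lower (19.2% of all genes), from -0.55 ± 0.09 (SE, adjusted p = 0.000135) for Xbp1 to -3.42 ± 0.17 (SE, adjusted p = 1.03e-08) for Ddit3. Splicing of Xbp1 and cleavage of ATF6 are not seen in counts per gene. With preconditioning, CYT moved 1 of the 6 past the adjusted p (8.20% of all genes), Ddit3 (0.87 ± 0.17, SE, adjusted p = 0.0029). In the same comparison 1 of the 14 folding enzymes fell (2.63% of all genes), Fkbp11 (-0.78 ± 0.14, SE, adjusted p = 0.00159). There edgeR found 0 of the redox, translocon and further ERAD genes past the adjusted p. At an unadjusted p under 0.05 there were 2, 4 and 1 of them, with 23.6% of all genes.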

How the data were processed

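PolyA RNA of INS-1E cells was made into libraries with a TruSeq kit. Per the study's methods and labels, read quality was examined in FastQC, rfastp did the trimming, Rsubread the alignment to mRatBN7.2 and featureCounts the counting (R 4.3.3). The authors deposited raw counts per gene symbol for all 12 libraries, which were used as deposited. A gene was kept where 2 or more libraries exceeded a CPM of 1. All 12 libraries entered the same edgeR 4.0.16 quasi-likelihood fit (R 4.3.3, limma 3.58.1) with TMM factors, group means and no replicate block, and p-values were adjusted by Benjamini-Hochberg over 14324 genes. The fit was tested on simulated data. The residual degrees of freedom were 8 and the common biological coefficient of variation was 0.123. Intervals are 95% intervals.

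The 37 genes, the other gene lists and the comparisons were chosen with earlier results of these data known. Values in every library are given for Hspa5, Hsp90b1, Hyou1 and P4hb (whose proteins the study measured), for genes called in CYT against untreated, IL-1βlow + CYT against CYT or the interaction, and for the largest and smallest CYT response of each class. Of the other lists, the genes with the largest rise and fall with CYT are named, and the remaining UPR genes were named after their values were seen. Alternatives were RLE, upper-quartile and no factors, DESeq2 1.42.0, exactTest (the study's test), other filters and thresholds, fits of the 2 groups compared, a replicate block, and leaving out each library. Promoter windows came from RefSeq and were joined by symbol. Protein sequences were not analysed here.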

Additional observations from a re-analysis of the deposited data

Results flagged for a closer look

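The CYT response of 4 of the 37 genes differed between preconditioned cells and cells without preconditioning by the interaction test, past the adjusted p and the fold minimum (edgeR's quasi-likelihood test, 3 libraries in each of 4 groups). Over all genes 10.7% passed both, so the number of genes is near the background. The response with IL-1βlow minus the response without it was 1.63 on the log2 scale for Dnajc10 (adjusted p = 8.61e-06), 1.37 for Edem1 (adjusted p = 4.81e-06), 1.18 for Ero1b (adjusted p = 0.00509) and -2.00 for Herpud1 (adjusted p = 4.95e-06). For Dnajc10, Edem1 and Ero1b the CYT libraries lay below the other 9, and for Herpud1 they lay above.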

How the results depend on the processing

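Of 105 single log2 fold changes, 894 of 913 values under other settings and 674 of 726 values with a library left out kept their direction and their side of the threshold. Of the rest, 3 and 17 lost the call, 3 and 16 gained it, and 13 and 19 changed sign. The sign changes were in values near 0 that passed in no setting. Hyou1 in IL-1βlow against untreated cells was -0.0012 with at least 10 counts in every library, -0.0031 in the fit of the 2 groups, and -0.1043 to 0.1157 with a library left out. P4hb there was 0.0090 with RLE factors and with DESeq2, 0.0027 with upper-quartile factors, 0.0081 with library sizes alone, 0.0153 without a filter, and -0.0946 to 0.0788 with a library left out. In IL-1βlow + CYT against untreated cells, Ero1b was 0.0072 with RLE factors, 0.0074 with DESeq2, 0.0334 without a filter, 0.0067 in the fit of the 2 groups and -0.1805 to 0.0818 with a library left out, Sil1 was 0.0159 without a filter and -0.0980 to 0.0073 with a library left out, and P4hb -0.0647 to 0.1091. Derl3 in IL-1βlow + CYT against CYT cells was -0.0005 without a filter and -0.0376 to 0.0506 with a library left out, and its interaction -0.1469 to 0.1483.

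Testing against the fold minimum itself (glmTreat) called 5 genes in CYT against untreated, 2 in IL-1βlow + CYT against CYT, 0 in IL-1βlow + CYT against untreated or against IL-1βlow, and 1 in the interaction, with 9.80%, 3.19%, 2.46%, 1.60% and 1.27% of all genes in the same order (untreated before IL-1βlow). An adjusted p under 0.05 without a fold minimum gave 31, 16, 24, 18 and 12, with 62.3%, 50.7%, 21.8%, 13.0% and 37.3% of all genes. With a library left out the called genes numbered 11 to 12, 3 to 5, 2 to 7, 1 to 4 and 3 to 5, in the same order, and 0 in IL-1βlow against untreated. The 7 came without untreated replicate 1, the 2 without IL-1βlow + CYT replicate 2, the 4 without IL-1βlow replicate 1 and the 1 without IL-1βlow replicate 3. Genes past the adjusted p of the interaction numbered 5 to 9. The cause was not tested. Replicate numbers were shared between groups, but same-numbered libraries deviated together unevenly (18 pairs, mean r = 0.191, from -0.188 to 0.520, and 9 of 12 libraries correlated best with their own number). With the replicate block the called genes numbered 11, 4, 4, 2 and 4 as without it, and those past the adjusted p 30, 17, 25, 18 and 12. Upper-quartile factors moved the median of all genes to -0.14 in CYT against untreated cells, and 13 of the 37 were then called, Pdia6 (-1.04) and Ero1b (-1.06) being added. Fkbp2 and Pdia5 were the genes with counts under 152, where depth limits the precision.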
